A study of Homo sapiens with 8 samples.

Results

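Most of the 8 genes described here encode enzymes that detoxify reactive compounds or keep the cell's thiols and quinones reduced. NNMT among them encodes a nicotinamide methyltransferase. The 8 genes are ALDH1A1, DHRS2, NQO1, NNMT, GSTP1, MGST1, GSTO1 and TXNRD1. They were chosen by symbol from the 19718 coding genes of the table, all 8 were found, and all 8 passed the filter on low values. The choice was made with their levels in these libraries known, so their differences between groups are given as descriptions, with no p-value. ALDH1A1 was less abundant in the drug-resistant derivative than in the parental line, with a ratio of mean levels of 0.237 in untreated cells. In untreated cells GSTP1 was 1.99-fold and NNMT 30.2-fold more abundant in the derivative, NNMT against parental levels under the cut of the filter on low values. Given the BET inhibitor OTX015, DHRS2 was 6.79-fold higher than in untreated cells in the derivative and 7.64-fold higher in the parental line. MGST1 was lower under the drug in both lines. GSTO1 and TXNRD1 stayed within 1.16-fold and 1.17-fold over the 8 libraries, taking each gene's highest over its lowest library.

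Apart from NNMT, these enzymes act on different substrates through shared cofactors. Aldehyde dehydrogenases and short-chain dehydrogenase/reductases oxidise or reduce carbonyl groups with NAD or NADP, and NQO1 passes electrons from NAD(P)H to quinones. Glutathione transferases join electrophiles to glutathione, and thioredoxin reductase uses NADPH to keep thioredoxin reduced. Many of the genes, NQO1 and TXNRD1 among them, are classical targets of the transcription factor NRF2 (gene NFE2L2), which KEAP1 marks for degradation until oxidants or electrophiles modify KEAP1. NRF2 binds with a small MAF partner to the antioxidant response element. In leukaemia, aldehyde dehydrogenase activity is widely used to mark stem-like cells, and glutathione transferases are known for handling cytotoxic drugs.

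Messenger RNA was measured in 4 groups of 2 libraries each, all cultured in RPMI medium with fetal bovine serum. The HEL OTX P/R cells, called P/R, are a derivative of HEL92.1.7 that persisted through OTX015 and is resistant to it; they were exposed to 1000 nM OTX015 for 8 hours or left untreated. The HEL92.1.7 cells, called parental, are erythroleukaemia cells that stand here for secondary acute myeloid leukaemia; they were exposed to the same dose for the same time or left untreated. OTX015 (birabresib) occupies the acetyl-lysine pockets of the BET proteins and so displaces them from chromatin. P/R is 1 derivative of 1 line, and its selection, cloning or pooling was not given in the sources used. The replicates are described as biologic and independently treated.

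Levels are FPKM, that is, fragments scaled to transcript length and library size, quantile normalized by the authors, so levels of different genes are compared per length. Every library totals 678133 FPKM after that step, so sequencing depth could not be recovered and counting error is not stated. In the table, 11255 genes with 1 FPKM or more in at least 2 libraries were tested with limma on log2(FPKM + 1), a scale that understates the change of low genes. A gene is said to pass, rise or fall at an adjusted p under 0.05 over all genes tested. For the 8 enzyme genes this is only a label from the same fit and no test, because they were chosen with their levels known. An exact permutation test of 2 libraries against 2 could not go below 0.333. Across genes, which are not independent replicates, Pearson's r was 0.996 to 0.997 within groups and 0.959 to 0.985 between them. All 12 marker genes of the HEL line were at 1 FPKM or more in all 8 libraries, and of 17 markers of other cell types 16 stayed under 1 FPKM, with CDH5, an endothelial gene, as the exception. In such bulk RNA, fewer cells with a transcript and less of it per cell cannot be told apart.

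Promoter sequences of 7 of the 8 genes were matched by symbol in RefSeq (build GRCh38.p14), each window running from 250 bases before a transcript start to 50 bases after it. The 250 bases upstream of the start are shown for ALDH1A1, DHRS2 and GSTP1, which differed most between groups among the 7, and for GSTO1, a glutathione transferase whose level hardly varied. Capitals mark the matches, on either strand, to 6 motifs that were searched: the antioxidant response element core TGACNNNGC, the AP-1 site TGANTCA, the TATA box TATAAA, the GC box GGGCGG, the GATA site AGATAA and the E-box CACGTG.
ALDH1A1, chr9:72953054-72953303, minus strand: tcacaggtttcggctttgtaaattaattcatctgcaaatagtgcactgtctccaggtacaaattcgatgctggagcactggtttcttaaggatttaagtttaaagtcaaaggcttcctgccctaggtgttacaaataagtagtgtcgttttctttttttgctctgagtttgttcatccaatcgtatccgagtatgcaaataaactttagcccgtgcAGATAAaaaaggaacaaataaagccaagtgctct
DHRS2, chr14:23629865-23630114, plus strand: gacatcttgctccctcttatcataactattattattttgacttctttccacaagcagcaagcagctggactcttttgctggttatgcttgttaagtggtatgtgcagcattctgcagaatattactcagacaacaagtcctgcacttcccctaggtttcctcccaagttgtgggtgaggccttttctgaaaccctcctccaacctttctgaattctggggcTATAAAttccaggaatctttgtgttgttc
GSTP1, chr11:67583562-67583811, plus strand: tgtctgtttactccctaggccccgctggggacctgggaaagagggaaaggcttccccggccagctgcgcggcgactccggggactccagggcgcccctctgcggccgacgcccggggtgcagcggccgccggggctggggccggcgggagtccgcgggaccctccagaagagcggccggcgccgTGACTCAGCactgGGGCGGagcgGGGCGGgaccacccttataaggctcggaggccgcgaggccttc
GSTO1, chr10:104254642-104254891, plus strand: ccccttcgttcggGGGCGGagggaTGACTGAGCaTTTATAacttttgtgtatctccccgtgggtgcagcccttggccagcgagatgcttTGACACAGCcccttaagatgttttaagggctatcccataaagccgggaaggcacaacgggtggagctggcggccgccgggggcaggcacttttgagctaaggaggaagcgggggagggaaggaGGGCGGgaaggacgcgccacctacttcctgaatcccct

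The windows differ in composition. The 300-base GSTP1 window is 74.0% G and C with 36 CG pairs, against medians of 58.7% and 14 over 35116 RefSeq promoters of the same length. The DHRS2 window is 44.0% G and C and holds 0 CG pairs, and the ALDH1A1 window is 40.3% with 7. GSTP1 holds TGACTCAGC at bases -66 to -58 from the start, which matches the antioxidant response element core and, over the bases -66 to -60, the AP-1 site, followed by 2 GC boxes. GSTO1 holds 2 matches to the antioxidant response element core, beginning at -226 and -161. DHRS2 holds a TATA box at -29 to -24, and ALDH1A1 holds a GATA site at -34 to -29. Neither DHRS2, ALDH1A1 nor NQO1 held TGACNNNGC within these windows, while both TXNRD1 windows and 1 of 3 MGST1 windows did. Over all promoters, 13.3% hold the antioxidant response element core, 7.71% the AP-1 site, 11.5% the TATA box, 45% the GC box, 10.3% the GATA site and 7.26% the E-box. These are matches of letters, and nothing about binding was measured.

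**Figure D1:**
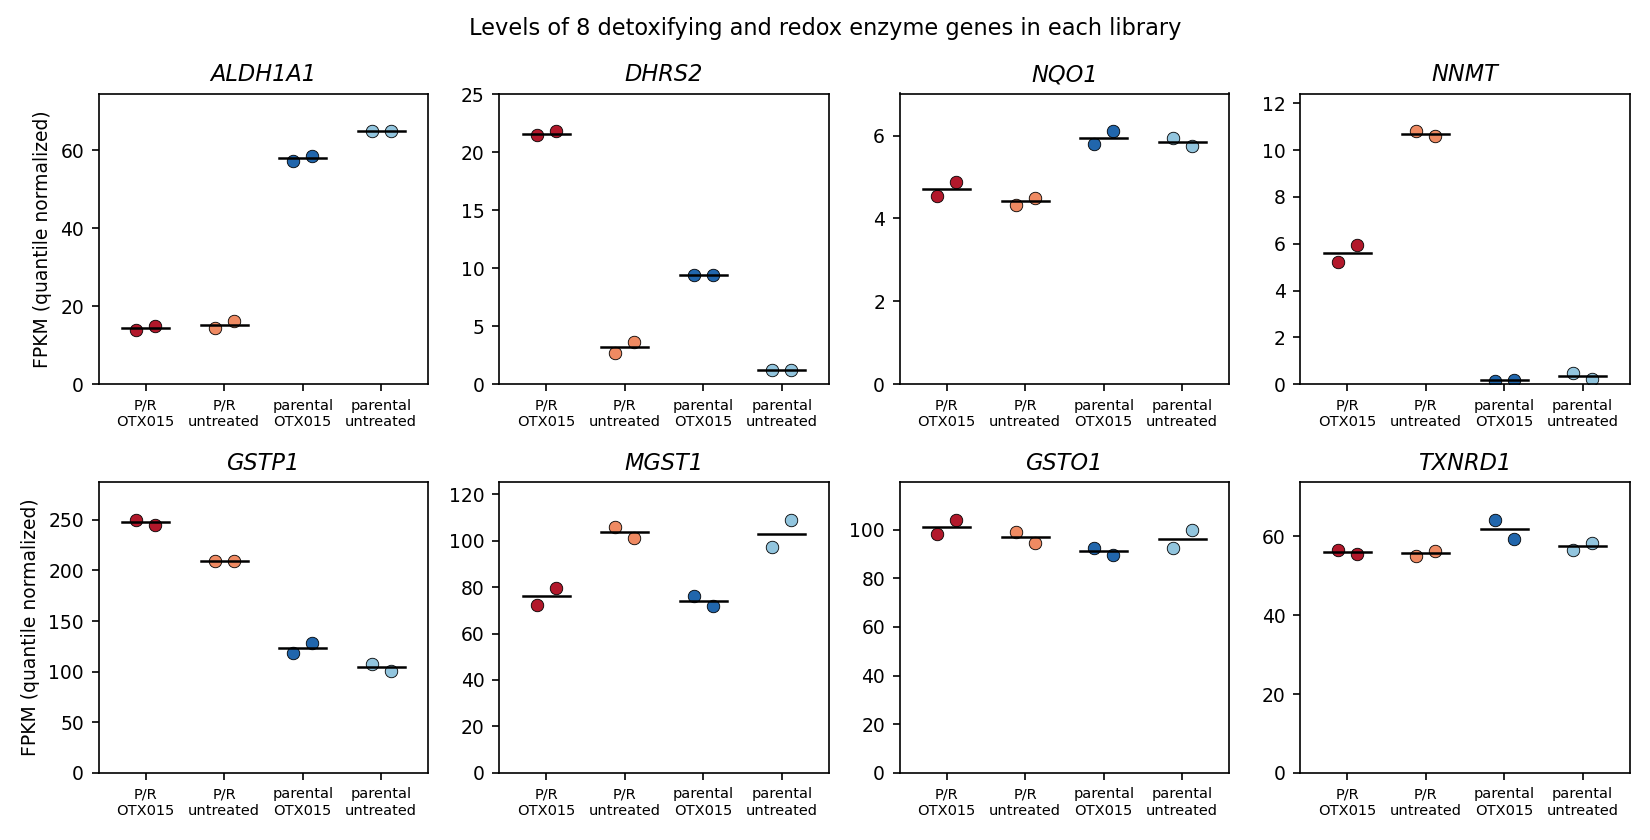
Level of each gene, in quantile-normalized FPKM (vertical axis, from 0), in each of the 8 libraries (points) of the 4 groups (horizontal axis), with the mean of the 2 libraries of a group as a bar. ALDH1A1 separates the lines downwards in P/R and GSTP1 and NNMT upwards, DHRS2 separates OTX015 from untreated cells, MGST1 is lower under OTX015 in both lines, and GSTO1 and TXNRD1 lie between 89.5 and 104 and between 55.1 and 64.2 FPKM.

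Within a library the glutathione transferases were the most abundant of the 8 transcripts. GSTP1 led in all 4 groups, and its best rank in the whole table was 370, reached in P/R cells under OTX015. In P/R cells the order under OTX015 ran GSTP1, GSTO1, MGST1, TXNRD1, DHRS2, ALDH1A1, NNMT and NQO1, and in untreated cells GSTP1, MGST1, GSTO1, TXNRD1, ALDH1A1, NNMT, NQO1 and DHRS2. In parental cells the order under OTX015 was GSTP1, GSTO1, MGST1, TXNRD1, ALDH1A1, DHRS2, NQO1 and NNMT. Untreated parental cells had ALDH1A1 ahead of TXNRD1 and DHRS2 behind NQO1, with NNMT last. In those untreated parental cells GSTP1 and MGST1 overlapped, as did MGST1 and GSTO1. Neighbours in the order did not overlap in any other case, with 2 libraries a group.

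ALDH1A1 (ENSG00000165092.12, chromosome 9) encodes the cytosolic dehydrogenase that turns retinaldehyde into retinoic acid and clears other aldehydes. Its level was 13.9 and 14.9 FPKM in P/R cells under OTX015 and 14.5 and 16.2 FPKM in untreated P/R cells. In parental cells it was 57.3 and 58.6 FPKM under OTX015 and 64.8 and 64.8 FPKM untreated, where equal ranks were given equal values by the normalization. All 4 P/R libraries lay below all 4 parental libraries, and the OTX015 and untreated libraries overlapped in P/R cells. On the log2 scale the P/R minus parental difference was -2.01 in untreated cells and -1.94 under OTX015, each with an SE of 0.07. The OTX015 minus untreated difference was -0.09 in P/R and -0.16 in parental cells, with the same SE, and neither passed; the parental one passed only when the 2 groups compared were fitted alone. The difference between these responses was 0.07 with an SE of 0.09.

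DHRS2 (ENSG00000100867.14, chromosome 14), a short-chain dehydrogenase/reductase that reduces dicarbonyl compounds, was the member with the largest drug response. It had 21.5 and 21.8 FPKM in P/R cells under OTX015, against 2.71 and 3.67 FPKM in untreated P/R cells. Parental cells had 9.41 and 9.44 FPKM under OTX015, against 1.22 and 1.25 FPKM untreated. No 2 groups overlapped, and the order of the groups ran from P/R under OTX015 through parental under OTX015 and untreated P/R to untreated parental cells. The OTX015 minus untreated difference was 2.44 in P/R cells and 2.22 in parental cells on the log2 scale, each with an SE of 0.11. As ratios of mean FPKM these responses were 6.79-fold and 7.64-fold, in the opposite order, because the added pseudocount weighs more on the lower parental levels. The difference between the responses was 0.22 with an SE of 0.16, and it was -0.10 with a pseudocount of 0.1 and 0.49 with one of 5. The P/R minus parental difference was 1.12 under OTX015 and 0.90 in untreated cells, again with an SE of 0.11. With a pseudocount of 5 the untreated line difference came to 0.39, and with one of 0.1 it came to 1.29.

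NQO1 (ENSG00000181019.12, chromosome 16) reduces quinones to hydroquinones and is among the best known NRF2 targets. It was low in every library, at 4.55 and 4.88 FPKM in P/R cells under OTX015, 4.33 and 4.5 FPKM in untreated P/R cells, 5.8 and 6.1 FPKM in parental cells under OTX015 and 5.95 and 5.76 FPKM in untreated parental cells. All P/R libraries lay below all parental libraries. The P/R minus parental difference on the log2 scale was -0.34 in untreated cells and -0.28 under OTX015, with an SE of 0.09, and both passed by a small margin. The untreated call was lost without any one of the 4 untreated libraries, with differences from -0.36 to -0.32, and the call under OTX015 was lost in 12 of 16 alternatives, among them leaving out any one of the 8 libraries, with differences from -0.32 to -0.24. The OTX015 minus untreated difference was 0.08 in P/R and 0.02 in parental cells.

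NNMT (ENSG00000166741.7, chromosome 11) methylates nicotinamide with S-adenosylmethionine and so draws on both the NAD precursor and the methyl donor. It stood at 5.23 and 5.97 FPKM in P/R cells under OTX015 and at 10.8 and 10.6 FPKM in untreated P/R cells. In parental cells it was 0.143 and 0.194 FPKM under OTX015 and 0.49 and 0.216 FPKM untreated. All 4 P/R libraries were above 5 FPKM and all 4 parental libraries below 1 FPKM, so the gene entered the tests only through its P/R libraries. The ratio of mean FPKM, P/R over parental, was 30.2 in untreated cells and 33.2 under OTX015. The log2(FPKM + 1) difference was 3.12 in untreated cells and 2.50 under OTX015, with an SE of 0.12, and depended on the pseudocount: it ran between 1.55 and 4.64 in untreated cells and between 1.04 and 4.41 under OTX015.

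Within P/R cells NNMT was lower under OTX015 than untreated, with a ratio of mean FPKM of 0.525 and a log2 difference of -0.82 with an SE of 0.12. In parental cells the difference was -0.20, at levels where the replicates of untreated cells were themselves 0.49 and 0.216 FPKM. The difference between the responses was -0.62 with an SE of 0.18 and passed only with a pseudocount of 5, where it was -0.51. Of the 12 markers of the line, 6 had a higher and 6 a lower mean in untreated P/R than in untreated parental cells, and their summed level was 12771 to 13015 FPKM in untreated P/R and 13593 to 13666 FPKM in untreated parental cells. The 3 megakaryocyte genes among them did not share a direction. PF4, a platelet chemokine, averaged 43.6 ± 0.583 FPKM in P/R cells under OTX015 and 48.9 ± 2.14 FPKM in untreated P/R cells, against 1.47 ± 0.339 FPKM in parental cells under OTX015 and 2.33 ± 0.471 FPKM in untreated parental cells (SD, n = 2 each). GP1BA, a platelet glycoprotein, averaged 49.9 and 69.2 FPKM in P/R cells under OTX015 and untreated, against 13.3 and 30.6 FPKM in parental cells under OTX015 and untreated. ITGA2B, the platelet integrin αIIb, was lower in P/R cells, at 345 and 313 FPKM against 382 and 378 FPKM in the same conditions. The 17 markers of other cell types summed to 1.76 to 2.12 FPKM in P/R cells under OTX015, 3.99 to 4.06 FPKM in untreated P/R cells, 1.53 to 1.94 FPKM in parental cells under OTX015 and 2.16 to 2.41 FPKM in untreated parental cells. Of these, 5 (CD3D, MS4A1, KRT5, KRT14 and COL1A2) were at 0 in every library. CDH5 averaged 2.63 FPKM in untreated P/R cells and 0.963 FPKM in untreated parental cells. Their part in the NNMT difference was not tested.

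GSTP1 (ENSG00000084207.15, chromosome 11), the pi-class cytosolic glutathione transferase, was at 250 and 245 FPKM in P/R cells under OTX015 and at 209 and 209 FPKM in untreated P/R cells. Parental cells had 118 and 128 FPKM under OTX015 and 108 and 101 FPKM untreated. No 2 groups overlapped, and every P/R library stood above every parental library. The P/R minus parental difference was 1.01 under OTX015 and 0.99 in untreated cells on the log2 scale, each with an SE of 0.05. OTX015 minus untreated was 0.24 in P/R and 0.23 in parental cells, with the same SE, and the difference between these responses was 0.02 with an SE of 0.07.

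MGST1 (ENSG00000008394.12, chromosome 12), a glutathione transferase and peroxidase of the endoplasmic reticulum and outer mitochondrial membranes, separated treated from untreated cells and not the lines. It was at 72.5 and 79.5 FPKM in P/R cells under OTX015, against 106 and 101 FPKM in untreated P/R cells. Parental cells had 76.3 and 71.7 FPKM under OTX015, against 97.4 and 109 FPKM untreated. The log2 difference, OTX015 minus untreated, was -0.44 in P/R and -0.47 in parental cells, with an SE of 0.07. The lines overlapped in both conditions, with P/R minus parental differences of 0.01 untreated and 0.04 under OTX015. In the annotation the gene overlaps LMO3 on the opposite strand, and the strandedness of the libraries was not given in the sources used.

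GSTO1 (ENSG00000148834.12, chromosome 10), the omega-class enzyme that acts as a thioltransferase and reduces dehydroascorbate, had 98.2 and 104 FPKM in P/R cells under OTX015, 99.1 and 94.4 FPKM in untreated P/R cells, 92.6 and 89.5 FPKM in parental cells under OTX015 and 92.5 and 100 FPKM in untreated parental cells. TXNRD1 (ENSG00000198431.15, chromosome 12), the cytosolic thioredoxin reductase, a selenoprotein, had 56.6 and 55.5 FPKM, 55.1 and 56.3 FPKM, 64.2 and 59.3 FPKM, and 56.6 and 58.3 FPKM in the same groups. Neither passed in any comparison. The largest log2 differences were 0.15 with an SE of 0.06 for GSTO1 and -0.14 with an SE of 0.05 for TXNRD1, both P/R minus parental under OTX015. TXNRD1 shares its locus with EID3 on the same strand, so reads of the 2 genes may be mixed.

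**Figure D2:**
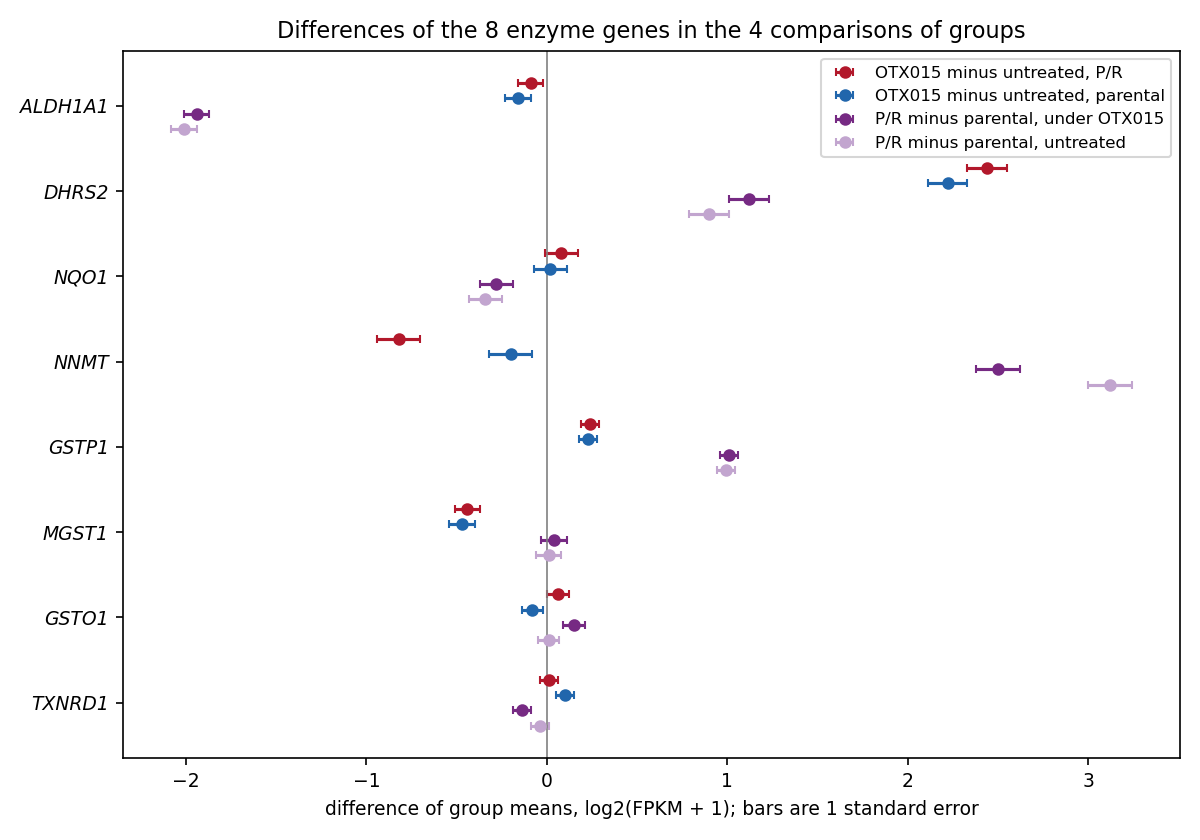
Difference of group means on the log2(FPKM + 1) scale (horizontal axis) for the 8 genes (rows) in 4 comparisons (colours), with bars of 1 SE from limma. The line differences of ALDH1A1 lie near -2 and those of NNMT at 3.12 and 2.50, the drug responses of DHRS2 lie at 2.44 and 2.22, and the points of GSTO1 and TXNRD1 lie within 0.15 of 0.

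Set against all genes, the number of these enzymes that passed is read only as a count, because the same contrasts were in view when they were chosen. For OTX015 in P/R cells 4 of the 8 passed, where 44.3% of the genes tested did: GSTP1 and DHRS2 were higher (22.5% of all genes) and NNMT and MGST1 lower (21.8%). In parental cells 3 passed, where 50.4% did: GSTP1 and DHRS2 were higher (25.7%) and MGST1 lower (24.7%). Between the untreated lines 5 passed, where 23.5% of the genes tested did: GSTP1, NNMT and DHRS2 were higher in P/R cells (11.7%) and ALDH1A1 and NQO1 lower (11.9%). The same 5 passed in the same directions under OTX015, where 24.4% did, 12.7% higher and 11.7% lower. The libraries of the 2 groups did not overlap for 5 of the 8 for OTX015 in P/R cells (72.7% of the genes tested), 6 in parental cells (75.6%), 6 between the untreated lines (62.3%) and 7 between the lines under OTX015 (60.8%). For the difference between the lines in their OTX015 response, 0 of the 8 passed, where 9 genes (0.08%) of those tested did; at an unadjusted p under 0.05 in limma the counts were 1 of the 8 (NNMT) and 1080 of all genes. The 2 line comparisons and the 2 drug comparisons share libraries, so they are not independent of each other.

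The pathways around these enzymes were read from 9 lists holding 177 genes, of which 171 were in the table and 127 were tested. Some genes, GCLC, GSR and SRXN1 among them, stand in more than 1 list, so the counts of the lists are not independent of each other. Under OTX015, 44 of the 127 rose and 21 fell in P/R cells, or 51.2% against 44.3% of all genes tested, and 49 rose and 25 fell in parental cells, or 58.3% against 50.4%. Between the lines, 16 were higher and 38 lower in untreated P/R than in untreated parental cells, or 42.5% against 23.5%, and 20 were higher and 39 lower under OTX015, or 46.5% against 24.4%. For each list below, the share that passed is set beside these shares of all genes, and no list was tested against them. The median difference of the 127 was -0.06 in untreated cells and -0.08 under OTX015, and no related gene passed in limma for the difference in response, with 17 of the 127 at an unadjusted p under 0.05. The medians over all genes tested lay between -0.014 and 0.021 in the 4 comparisons of groups. All adjusted p-values below are from limma over all genes tested, and the calls named below held in every alternative unless an exception is given. They were mainly picked for holding, after their values were seen. Of 146 calls that the naming rule gave, 51 were lost in some alternative.

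NRF2 itself and its repressor showed no change that passed. NFE2L2 had 22.9 and 25 FPKM in P/R cells under OTX015, 22.1 and 25.7 FPKM in untreated P/R cells, 25.4 and 23.4 FPKM in parental cells under OTX015 and 22.6 and 23 FPKM in untreated parental cells. KEAP1 lay between 127 and 144 FPKM over the 8 libraries. BACH1, which represses NRF2 targets, rose under OTX015 in parental cells, to 13.4 ± 0.517 FPKM against 9.53 ± 0.838 FPKM (log2 difference 0.45, adjusted p = 0.0054, SD, n = 2 each), and in P/R cells had a log2 difference of 0.20 (adjusted p = 0.141). The difference between these 2 responses was -0.25 (adjusted p = 0.632). SQSTM1, whose p62 protein sequesters KEAP1, rose under OTX015 by 1.03 on the log2 scale in both lines (adjusted p = 5.36e-06 in P/R and 3.27e-06 in parental cells) and was lower in P/R than in parental cells, at 137 and 131 against 190 and 200 FPKM under OTX015 and at 67.9 and 62.7 against 89.9 and 99.9 FPKM untreated. Of the 11 regulators tested, 2 rose and 2 fell under OTX015 in P/R cells and 3 rose and 2 fell in parental cells, with medians of 0.00 and -0.01. These are 36.4% and 45.5% of the list, against 44.3% and 50.4% of all genes. Between the lines 0 were higher and 2 lower in untreated P/R cells (18.2%, against 23.5%), and 2 were higher and 2 lower under OTX015 (36.4%, against 24.4%).

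Among 26 other NRF2 target genes tested, 14 rose and 1 fell under OTX015 in P/R cells (median log2 difference 0.22), and 12 rose and 2 fell in parental cells (median 0.14), where over all genes tested 22.5% rose and 21.8% fell in P/R cells and 25.7% rose and 24.7% fell in parental cells. EPHX1, the microsomal epoxide hydrolase, averaged 36.7 ± 3.28 against 14.3 ± 0.589 FPKM in P/R cells (log2 difference 1.30, adjusted p = 4.66e-06), and 43.9 ± 1.68 against 17 ± 0.856 FPKM in parental cells (1.32, adjusted p = 2.56e-06), OTX015 before untreated (SD, n = 2 each). GCLC, the catalytic subunit of the first enzyme of glutathione synthesis, rose by 0.68 in P/R and 0.60 in parental cells (adjusted p = 0.00061 and 0.00102). NQO2, a quinone reductase related to NQO1, rose by 0.48 in P/R cells (adjusted p = 0.000676), while NQO1 differed by 0.08 there. In parental cells NQO2 was at 19.6 and 19 FPKM under OTX015, against 14.4 and 13.2 FPKM untreated. ABCC1, an efflux pump for glutathione conjugates, fell by 0.40 in parental cells, to 8.52 ± 0.575 against 11.6 ± 0.204 FPKM (adjusted p = 0.00372, SD, n = 2 each). In P/R cells ABCC1 had a log2 difference of -0.08 (adjusted p = 0.483). The difference between these 2 responses, P/R minus parental, was 0.32 and did not pass (adjusted p = 0.425).

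Between the lines more of the target genes were lower than higher in P/R cells: 1 of 26 was higher and 9 were lower untreated (median -0.17), and 4 were higher and 10 lower under OTX015 (median -0.11), where over all genes tested 11.7% were higher and 11.9% lower, and 12.7% were higher and 11.7% lower. BLVRA, which reduces biliverdin, was lower by 0.64 untreated and 0.60 under OTX015 (adjusted p = 0.000157 and 0.000208). HMOX1, the inducible haem oxygenase, averaged 6.25 ± 0.146 FPKM in P/R cells under OTX015, against 10.1 ± 0.394 FPKM in parental cells under OTX015 (log2 difference -0.61, adjusted p = 0.0021, SD, n = 2 each). PIR, an iron-binding nuclear protein, was lower by 0.66 in untreated P/R cells (adjusted p = 0.00315). GSR, which reduces oxidised glutathione, was the exception among these genes in untreated cells and was higher in P/R cells by 0.45 untreated and 0.34 under OTX015 (adjusted p = 0.000484 and 0.00222). AKR1C1 was lower in P/R cells under OTX015 (-0.67, adjusted p = 0.00144), but its reads may be shared with near-identical AKR1C genes.

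Of 12 other glutathione transferases and related membrane proteins tested, 3 were higher and 5 lower in P/R than in parental cells, both untreated and under OTX015, which is 66.7% of the list against 23.5% and 24.4% of all genes. The list counts GSTT2 and GSTT2B separately, though their levels were alike, at 2.59 and 3.11 against 2.68 and 2.99 FPKM in parental cells under OTX015. Reads shared by these genes may thus count more than once. LTC4S, which makes leukotriene C4 from glutathione, had 21.8 and 20.7 FPKM in untreated P/R cells, against 10.7 and 11.1 FPKM in untreated parental cells (log2 difference 0.91, adjusted p = 0.000105). Under OTX015 the difference was 1.05 (adjusted p = 3.87e-05). GSTM3, a mu-class enzyme, moved the other way between the lines, at 77.9 and 73.7 FPKM in untreated P/R cells against 115 and 109 FPKM in untreated parental cells (-0.55, adjusted p = 7.76e-05). It rose under OTX015 by 0.33 in P/R and 0.35 in parental cells (adjusted p = 0.000918 and 0.000523). MGST2, a membrane-bound relative of MGST1, fell under OTX015 in parental cells, to 49.7 ± 6.48 against 81.1 ± 5.3 FPKM (-0.70, adjusted p = 0.000797, SD, n = 2 each). In P/R cells it fell by 0.49 (adjusted p = 0.00667), a call lost without the first replicate of P/R cells under OTX015. In all, 2 of the 12 rose and 2 fell under OTX015 in P/R cells, and 4 rose and 2 fell in parental cells. These shares were 33.3% and 50%, against 44.3% and 50.4% of all genes.

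The glutathione synthesis and turnover list (15 tested) had 6 rises and 3 falls under OTX015 in P/R cells (60%, against 44.3% of all genes) and 7 and 3 in parental cells (66.7%, against 50.4%). HAGH, which releases glutathione in the glyoxalase pathway, averaged 25.1 ± 1.87 against 10.8 ± 0.457 FPKM in P/R cells (log2 difference 1.14, adjusted p = 1.25e-05) and 26 ± 1.73 against 11.7 ± 0.514 FPKM in parental cells (1.09, adjusted p = 1.03e-05), OTX015 before untreated (SD, n = 2 each). ETHE1, a mitochondrial sulfur dioxygenase, rose by 0.74 and 0.67 (adjusted p = 0.000457 in P/R and 0.000639 in parental cells). GPX7, a peroxidase of the endoplasmic reticulum, fell by 0.50 and 0.60 (adjusted p = 0.000254 and 6.62e-05). Between the lines 3 of the 15 were higher and 3 lower in untreated P/R cells (40%, against 23.5%), and 3 were higher and 2 lower under OTX015 (33.3%, against 24.4%). GLO1, the first glyoxalase, was lower in P/R cells by 0.47 untreated and 0.42 under OTX015 (adjusted p = 0.00105 and 0.0017).

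Around TXNRD1, 20 other genes of the thioredoxin and peroxiredoxin system were tested. Between the lines 3 were higher and 5 lower in untreated P/R cells (40%, against 23.5% of all genes), and 4 were higher and 7 lower under OTX015 (55%, against 24.4%). PRDX5, a peroxiredoxin of mitochondria and peroxisomes, had 283 and 291 FPKM in untreated P/R cells, against 206 and 207 FPKM in untreated parental cells (log2 difference 0.47, adjusted p = 2.64e-05). PRDX2, the abundant cytosolic peroxiredoxin of erythroid cells, was lower, at 249 and 254 FPKM against 375 and 364 FPKM in the same groups (-0.55, adjusted p = 1.06e-05). TXN2, the mitochondrial thioredoxin, was higher in untreated P/R cells by 0.26 (adjusted p = 0.00259), and CAT, the catalase gene, lower by 0.39 (adjusted p = 0.000958). Under OTX015, 7 of the 20 rose and 1 fell in P/R cells, and 5 rose and 4 fell in parental cells. These shares were 40% and 45%, against 44.3% and 50.4% of all genes. SOD2, the mitochondrial superoxide dismutase, rose by 0.48 in P/R cells and 0.72 in parental cells (adjusted p = 6.36e-05 and 5.06e-06), and the difference between these responses did not pass (-0.24, adjusted p = 0.309).

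Beside ALDH1A1, 11 other aldehyde dehydrogenases were tested. Of these, 2 were higher and 2 lower in untreated P/R cells, and 2 were higher and 0 lower under OTX015, with medians of 0.12 and 0.00 (36.4% and 18.2% of the list, against 23.5% and 24.4% of all genes). Under OTX015, 6 rose and 3 fell in P/R cells and 5 rose and 2 fell in parental cells, with medians of 0.36 and 0.25. That is 81.8% and 63.6% of the list, against 44.3% and 50.4% of all genes. ALDH16A1 rose by 0.75 in P/R and 0.81 in parental cells (adjusted p = 2.08e-05 and 9.3e-06). ALDH3A2, the fatty aldehyde dehydrogenase, had 12.2 and 12 FPKM in P/R cells under OTX015, against 6.32 and 7.2 FPKM in untreated P/R cells (log2 difference 0.76, adjusted p = 0.000183). Parental cells had 8.32 and 8.01 FPKM of it under OTX015, against 6.13 and 5.61 FPKM untreated. ALDH3A2 was higher in P/R than in parental cells under OTX015 (0.52, adjusted p = 0.00275). None of the 11 passed for the difference in response. ALDH9A1, which oxidises an aminoaldehyde in carnitine synthesis, rose by 0.64 in P/R and 0.53 in parental cells (adjusted p = 3.63e-05 and 7.15e-05).

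Among 14 other dehydrogenase/reductases and carbonyl reductases tested, 1 was higher and 7 lower in untreated P/R than in untreated parental cells (median -0.26), and 2 were higher and 9 lower under OTX015 (median -0.33), while DHRS2 was higher in both. That is 57.1% and 78.6% of the list, against 23.5% and 24.4% of all genes, with 11.9% and 11.7% of all genes lower. DHRS3, which reduces retinaldehyde to retinol, was lower in P/R cells and fell under OTX015. It had 13.1 and 11.9 FPKM in P/R cells under OTX015, 38.8 and 37.3 FPKM in untreated P/R cells, 26.3 and 26.8 FPKM in parental cells under OTX015 and 78.1 and 75.2 FPKM in untreated parental cells. No 2 of the 4 groups overlapped. The line difference was -0.99 untreated and -1.03 under OTX015 (adjusted p = 7.87e-06 and 5.54e-06), and the drug response was -1.53 in P/R and -1.49 in parental cells (adjusted p = 6.39e-07 and 4.82e-07). DCXR, the dicarbonyl and xylulose reductase, rose under OTX015 by 0.93 in P/R and 0.99 in parental cells (adjusted p = 1.48e-06 and 7.13e-07). Under OTX015 the list had 3 rises and 4 falls in P/R cells (50%, against 44.3%) and 5 and 4 in parental cells (64.3%, against 50.4%). DHRS4 was lower in untreated P/R cells by 0.64 (adjusted p = 0.000702), but its reads may be shared with its near-identical copy DHRS4L2.

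In the retinoid list (7 tested), RARA, a retinoic acid receptor, had 23.3 and 24.4 FPKM in untreated P/R cells against 40.5 and 39 FPKM in untreated parental cells (log2 difference -0.71, adjusted p = 3.99e-05), and was lower by 0.65 under OTX015 (adjusted p = 5.76e-05). RARA also fell under OTX015, by 0.28 in parental cells (adjusted p = 0.00369) and by 0.22 in P/R cells (adjusted p = 0.0147), where the call was lost without the second untreated (-0.19) or the second treated (-0.20) P/R replicate. In the whole list, RARA included, 1 gene was higher and 1 lower in P/R cells in each line comparison (28.6% of 7, against 23.5% and 24.4% of all genes). Under OTX015, 2 rose and 1 fell in P/R cells (42.9%, against 44.3%) and 2 rose and 2 fell in parental cells (57.1%, against 50.4%).

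Around NNMT, 17 genes of nicotinamide and methyl donor metabolism were tested. Of these, 3 were higher and 6 lower in untreated P/R cells, and 1 was higher and 5 lower under OTX015 (medians -0.07 and -0.17). That is 52.9% and 35.3% of the list, against 23.5% and 24.4% of all genes. PARP1, a large consumer of NAD in DNA repair, had 110 and 109 FPKM in untreated P/R cells against 175 and 181 FPKM in untreated parental cells (log2 difference -0.70, adjusted p = 4.74e-06), and was lower by 0.76 under OTX015 (adjusted p = 2.85e-06). PNP, which splits nicotinamide riboside and purine nucleosides, was lower by 0.32 and 0.36 (adjusted p = 0.00117 and 0.000609). NMNAT3, a mitochondrial enzyme of NAD synthesis, was lower by 0.43 in untreated P/R cells (adjusted p = 0.00176). Under OTX015, 6 rose and 4 fell in P/R cells (58.8%, against 44.3%) and 8 rose and 4 fell in parental cells (70.6%, against 50.4%). NADK, which makes NADP from NAD, rose by 0.50 in parental cells (adjusted p = 0.000293). In P/R cells NADK was at 76.3 and 74.4 FPKM under OTX015, against 66.2 and 59.3 FPKM untreated.

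**Figure D3:**
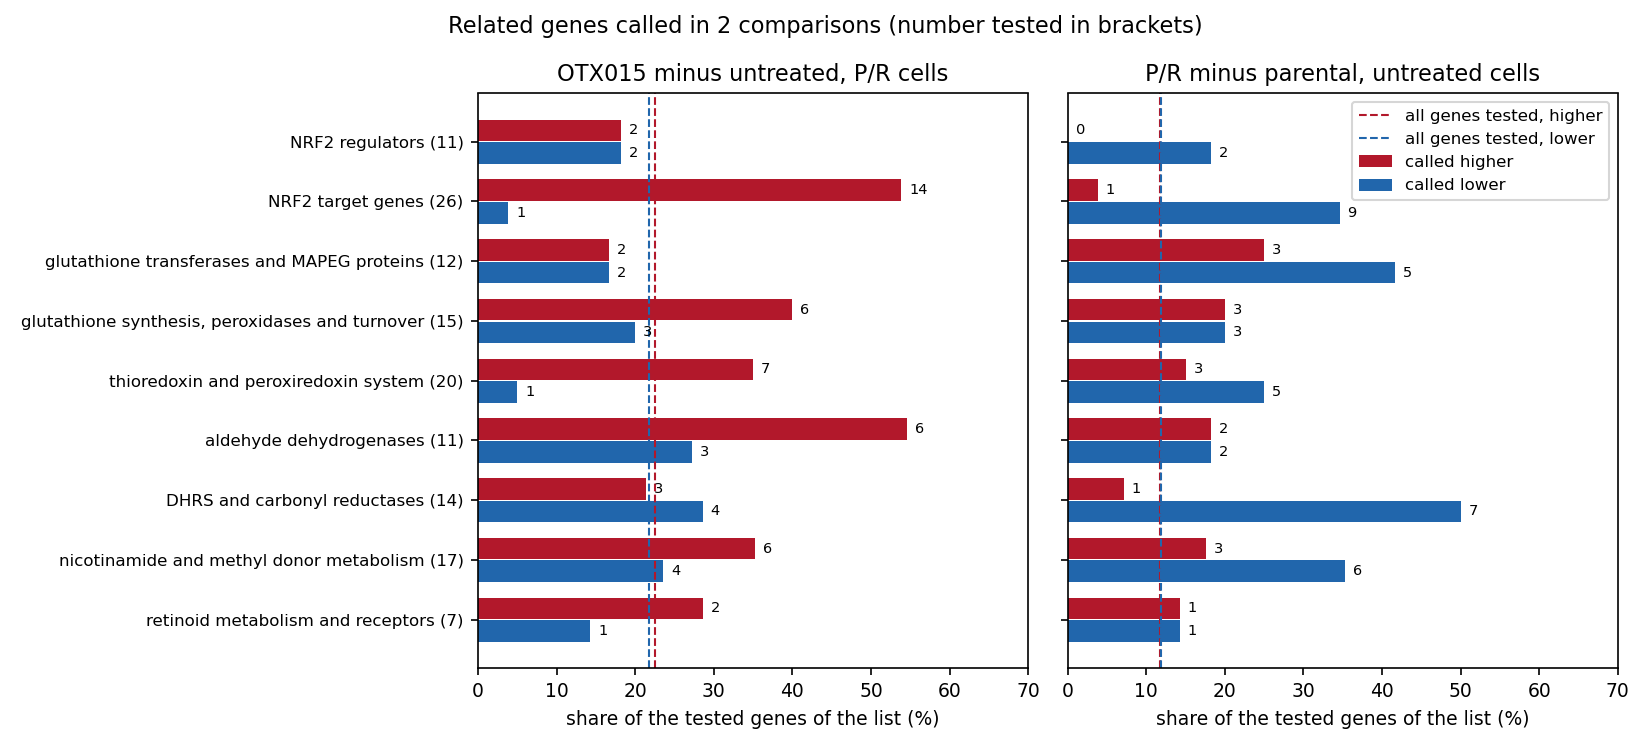
Share of the tested genes of each related list (rows, number tested in brackets) that passed higher (red) or lower (blue), in percent, for OTX015 minus untreated in P/R cells (left) and P/R minus parental in untreated cells (right); bar ends carry the counts and dashed lines the share over all genes tested. Of the NRF2 target genes, 14 of 26 rose under OTX015 in P/R cells, and 9 were lower in untreated P/R cells.

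Genes like each member were sought as a description of libraries that fall into 4 groups. Candidates had a mean of at least 5 FPKM over the 8 libraries and at least 0.5 times the member's span. The genes most like a member were found among them by Pearson's r on log2(FPKM + 1) over the 8 libraries. For ALDH1A1 they were GALNS (r = 0.9972), STXBP6 (0.9959) and KIT (0.9932), from 618 candidates. KIT, the stem cell factor receptor, averaged 1.37 ± 0.0218 and 2.09 ± 0.178 FPKM in P/R cells under OTX015 and untreated, against 9.82 ± 0.0485 and 12.3 ± 1.46 FPKM in parental cells under OTX015 and untreated (SD, n = 2 each). For GSTP1 they were SEPN1 (0.9950), EMC6 (0.9947) and FAXDC2 (0.9928), from 2094. For NNMT they were PF4 (0.9834), ITGB5 (0.9823) and MAGEA3 (0.9821), from 176, the last with near-identical copies elsewhere on its chromosome. For DHRS2 they were TAX1BP3 (0.9954), the histone gene HIST1H2BG (0.9949) and TOM1L2 (0.9935), from 172. HIST1H2BG averaged 13.9 ± 0.49 FPKM in P/R cells under OTX015 and 1.43 ± 0.103 FPKM in untreated P/R cells, against 5.07 ± 0.153 and 0.54 ± 0.0869 FPKM in parental cells under OTX015 and untreated (SD, n = 2 each). NQO1, MGST1, GSTO1 and TXNRD1 spanned too little for this search.

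**Figure D4:**
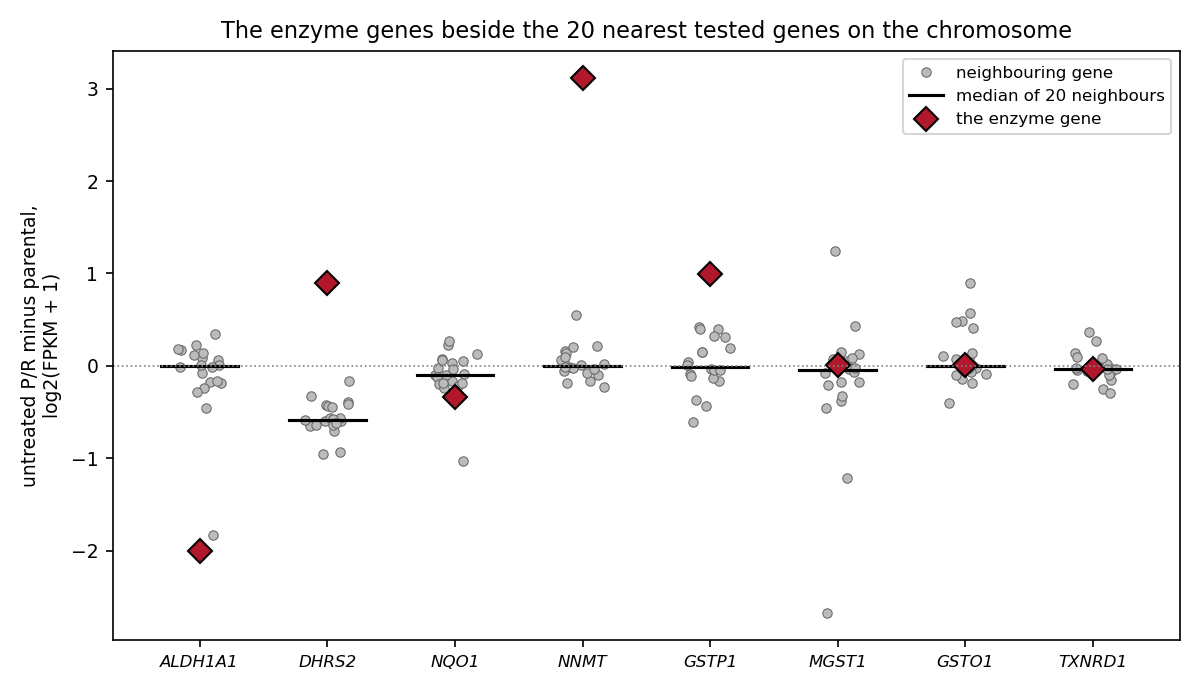
P/R minus parental difference in untreated cells, on the log2(FPKM + 1) scale (vertical axis), of each enzyme gene (diamond) and of the 20 nearest tested genes on its chromosome (grey points), with their median (bar). DHRS2, at 0.90, lies above all of its neighbours, whose median is -0.59.

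The position of the genes was read from the gene order of a GRCh38 annotation (GENCODE 29), by identifier, with 10 tested genes on each side. DHRS2 lay among genes that were lower in P/R cells. Of its 20 neighbours in untreated cells 0 had a positive difference and 18 passed, where 23.5% of all genes tested did. The differences of these neighbours ran between -0.95 and -0.16 with a median of -0.59. Under OTX015 their median was -0.49, 2 had a positive difference and 15 passed, where 24.4% of all genes tested did. DHRS4, PSME1 and PSME2 are among these neighbours, with differences of -0.64, -0.58 and -0.64 in untreated cells, so DHRS2 differed in the opposite direction from the genes around it in untreated cells. Around ALDH1A1 the median was 0.00, but its neighbour ANXA1, the gene of annexin A1, differed by -1.83 in untreated cells and -1.75 under OTX015. The medians around NNMT, GSTP1 and NQO1 were 0.00, -0.01 and -0.10 in untreated cells, against 3.12, 0.99 and -0.34 for the genes themselves. Between the untreated lines 4 of the 20 neighbours of ALDH1A1 passed, 1 of NNMT, 6 of GSTP1 and 2 of NQO1.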

How the data were processed

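Total RNA treated with DNase was sequenced in 8 libraries, per the labels' protocols. The authors deposited 1 table of 19718 coding genes, whose unit the header does not name. It is read as FPKM because Cufflinks 2.0, TopHat2 2.0 and hg19 are named, per the submitters' processing notes, and from the range of the values; roles, settings, poly(A) selection and strandedness were not given in the sources used here. These deposited FPKM had been quantile normalized: once sorted, libraries were within 0.136% of each other from a mean of 1 FPKM upwards, so any global change in RNA content is lost, and depth cannot be recovered. All columns were mapped to samples by their names.

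Genes with at least 1 FPKM in at least 2 libraries (11255) were fitted as log2(FPKM + 1) with 4 group means in limma 3.58.1 (R 4.3.3, eBayes with a variance trend, 4 residual and 5.23 prior degrees of freedom), adjusted by Benjamini-Hochberg at 0.05, two-sided. The fit was tested on simulated data. The 8 genes, the 9 lists of related genes and the marker lists were chosen with earlier results of these data known. Related genes were named as the up to 3 highest and 3 lowest differences that passed in a list and comparison, averaging 5 FPKM or more in a group, plus NFE2L2, KEAP1 and BACH1; of these, mainly calls that held in every alternative are printed, a choice made after their values were seen, along with other values of the same genes. Symbols listed under 2 identifiers were counted once. As alternatives, the pseudocount was 0.1 or 5, the filter was dropped or raised to a mean of 5 FPKM, the variance trend was dropped, only the groups compared were fitted, replicate numbers were blocked, and each library was left out.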

Additional observations from a re-analysis of the deposited data

How the results depend on the processing

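No difference of the 8 enzymes that passed changed direction under any alternative run. For each of them the libraries of the 2 groups did not overlap, so no alternative could reverse it, and this does not measure stability. Of 320 values of these genes with a library left out, 308 moved by no more than the spread between replicates and 12 by more. In a comparison of 2 groups, leaving out 1 of 2 libraries cannot move a value by more than that spread. Only the differences in response could move further, so the 308 do not measure stability. With a pseudocount of 0.1, 12 of 40 values moved by more than that spread, and with one of 5, 13 of 40 did; the choice matters most for NNMT and DHRS2, which are low in some groups. Of 146 calls of related genes that the naming rule gave, 95 held in every alternative. The number of genes that passed between untreated lines (2647) ran from 1614 to 2688 when 1 library was left out, lowest without the first (1614) and second (1689) untreated P/R replicates, and between the lines under OTX015 (2747) from 1763 to 2633, lowest without the first replicate of parental cells under OTX015. The 9 genes that passed for the difference in response became 4 with a pseudocount of 0.1, 29 with one of 5, 4 with no filter, 3 with no variance trend, and 2 to 8 with a library left out. Deviations of replicates with the same number correlated weakly over genes (r from -0.12 to 0.104). With 2 replicates a group, a batch or pairing that touches only some genes could not be seen this way. With a replicate block, 2 genes passed for the difference in response, 4875 and 5565 for OTX015 in P/R and parental cells, and 2517 and 2555 between the lines untreated and under OTX015. A crossed pairing under OTX015, added after the data were seen and fitted with only the groups compared, gave 3107 genes and 62 related genes. Groups of 2 libraries and unknown depth limit what can be said of low genes such as NNMT in parental cells.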
